A study of Mus musculus with 12 samples.

Results

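The genes described here are Myc and 49 genes whose products build ribosomes, 50 of the 38924 gene IDs with counts. They were taken by symbol from a given list and sorted by role. The list holds Myc, 6 genes of RNA polymerase I transcription, 8 genes of small nucleolar ribonucleoprotein (snoRNP) cores, 15 genes of the small ribosomal subunit's assembly, 16 genes of the large subunit's assembly and 4 other nucleolar proteins. All 50 were found, and all 50 passed the filter on low counts that left 13811 genes for testing. Their lowest count in a library was 322 and their highest 143086.

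RNA-seq was run on CD4+ T cells, sorted as naive cells from the spleens of C57BL/6 mice aged 8 to 12 weeks. The mice were wild-type (WT) or STINGgt/gt (Goldenticket), a germline point mutation in the gene for STING, the innate immune adaptor that senses cyclic dinucleotides; the sample labels call this genotype STING KO. Cells of both genotypes had been expanded for 2 days with antibodies to CD3 and CD28 and rested for 1 day, and were then cultured for 16 h with the solvent DMSO or with CMA (10-carboxymethyl-9-acridanone), a cell-permeable STING agonist. The 4 groups, WT DMSO, WT CMA, STINGgt/gt DMSO and STINGgt/gt CMA, had 3 libraries each. The study calls the libraries of a group biological replicates. The sources used here do not say whether they came from separate animals or cultures, so the p-values measure the spread between these libraries.

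Ribosome biogenesis starts in the nucleolus, where RNA polymerase I transcribes the ribosomal DNA into 1 long precursor. SnoRNPs modify this RNA, and assembly factors fold, cut and load it with ribosomal proteins until the small and the large subunit can leave the nucleus. Myc is a transcription factor that binds the E-box as a dimer with Max and is known to drive many genes of this pathway, and T cells that leave rest after antigen receptor stimulation raise both Myc and ribosome production.

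The libraries held 27414450 to 43784910 reads on genes. The T cell markers were present in all libraries, with Cd3e at 153 to 282 CPM (counts scaled to library size by edgeR's trimmed mean of M values) and Cd4 at 434 to 548 CPM. Their levels differed between the groups too: the sum of 8 T cell markers was 2690 to 2759 CPM in WT DMSO, 2466 to 2549 in WT CMA and 2825 to 2897 over both STINGgt/gt groups. Markers of other cells, which the sort of naive T cells before culture would remove, were also detected and differed between the groups. The summed level of 7 B cell markers was 221 to 225 CPM in WT DMSO, 316 to 335 in WT CMA, 103 to 107 in STINGgt/gt DMSO and 102 in each STINGgt/gt CMA library. The sum of 7 CD8 T cell and natural killer cell markers was 152 to 160 CPM in WT DMSO, 94.7 to 102 in WT CMA and 69.7 to 76.6 over both STINGgt/gt groups, and that of 7 myeloid markers was 26.6 to 30.7, 61.7 to 72.6 and 15.3 to 19.7 CPM, with Mpeg1 making up most of it. None of these markers was at 0 in every library.

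The E-box CACGTG, the sequence that Myc and Max bind, was looked up in the promoters of the genes because Myc stands beside its known targets here. A promoter was the RefSeq window (GRCm38.p6) from 250 bases before to 50 bases after the start site, and 42 of the 50 genes had one. CACGTG reads the same on both strands. It was found in 9 of these 42 promoters (21.4%), against 11.7% of the 9695 tested genes with a promoter and 7.15% of all 32851 promoters. The genes with it were Grwd1, Mybbp1a, Nle1, Nop2, Pes1, Rrn3, Utp18, Utp20 and Wdr43. In 3 of them it lay wholly before the start site, and the 250 bases upstream are printed for these, 5′ to 3′ on the strand of the gene, with the E-box in capitals. Rrn3 lies at chr16:13780449-13780698 on the plus strand with E-boxes starting 215 and 48 bases before the start site, Nop2 at chr6:125131633-125131882 on the plus strand with 1 starting 60 bases before it, and Utp18 at chr11:93885767-93886016 on the minus strand with 1 starting 20 bases before it.
Rrn3: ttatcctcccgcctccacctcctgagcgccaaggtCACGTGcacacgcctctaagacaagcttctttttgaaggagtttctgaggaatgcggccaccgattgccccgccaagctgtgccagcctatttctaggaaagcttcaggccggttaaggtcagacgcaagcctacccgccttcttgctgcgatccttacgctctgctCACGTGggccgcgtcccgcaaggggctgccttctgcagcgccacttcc
Nop2: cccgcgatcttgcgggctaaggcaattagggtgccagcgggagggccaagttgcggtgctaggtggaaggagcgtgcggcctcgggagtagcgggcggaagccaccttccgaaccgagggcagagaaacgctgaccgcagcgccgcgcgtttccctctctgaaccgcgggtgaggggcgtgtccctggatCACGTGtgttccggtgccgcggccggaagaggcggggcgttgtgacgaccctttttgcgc
Utp18: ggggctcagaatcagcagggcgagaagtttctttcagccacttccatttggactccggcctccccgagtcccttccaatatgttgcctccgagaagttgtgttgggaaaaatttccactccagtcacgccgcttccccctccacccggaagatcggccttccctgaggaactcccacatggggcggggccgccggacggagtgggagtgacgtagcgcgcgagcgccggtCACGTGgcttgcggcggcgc

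The response of these genes to CMA was set beside that of the genes without the motif. The median log2 fold change with CMA in WT was -0.73 over the 9 and -0.83 over the other 33, and over all tested genes with a promoter it was -0.08 with the motif and -0.04 without. Rrn3, Nop2 and Utp18 themselves had log2 fold changes of -0.52, -0.73 and -0.70. A match of 6 letters is a description of the window and does not show binding.

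Myc mRNA rose with CMA in WT cells, while every one of the 49 ribosome biogenesis genes fell. This comparison asks what STING activation did to the pathway and to its known regulator in T cells. The study reports that overnight CMA led to apoptosis in WT CD4+ T cells and not in STINGgt/gt ones. The WT CMA libraries may thus hold RNA of dying cells or of survivors, and the part of this in the result was not tested. Myc, at 15:61985391-61990374 (GRCm38, plus strand), stood at 329, 326 and 297 CPM in WT DMSO and at 486, 524 and 483 CPM in WT CMA. The 3 CMA libraries lay above the 3 DMSO libraries, a 1.57-fold rise (log2 fold change 0.65 ± 0.06 SE, adjusted p = 2.17e-08 in edgeR's quasi-likelihood test). In STINGgt/gt cells Myc stood at 362, 376 and 402 CPM with DMSO and at 388, 391 and 425 CPM with CMA, and these groups overlapped (log2 fold change 0.08 ± 0.05, adjusted p = 0.593). The response differed between the genotypes by 0.57 ± 0.08 on the log2 scale (adjusted p = 1.03e-05). The order of the group means was WT DMSO, STINGgt/gt DMSO, STINGgt/gt CMA and WT CMA, of which the middle pair did not differ beyond its spread. In bulk RNA, a lower level in each cell and fewer cells that express a gene cannot be told apart.

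The 49 genes other than Myc took 0.992%, 1.01% and 1.08% of the reads on genes in the WT DMSO libraries and 0.608%, 0.586% and 0.611% in the WT CMA libraries, a mean of 1.03% ± 0.047 (SD, n = 3) against 0.602% ± 0.0137. The STINGgt/gt libraries had 1.24%, 1.21% and 1.16% with DMSO and 1.26%, 1.28% and 1.25% with CMA. WT CMA was thus the low group, and every STINGgt/gt library lay above every WT library. Npm1 and Ncl, with means of 2883 and 2010 CPM in WT DMSO, weigh most in this share.

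**Figure D1:**
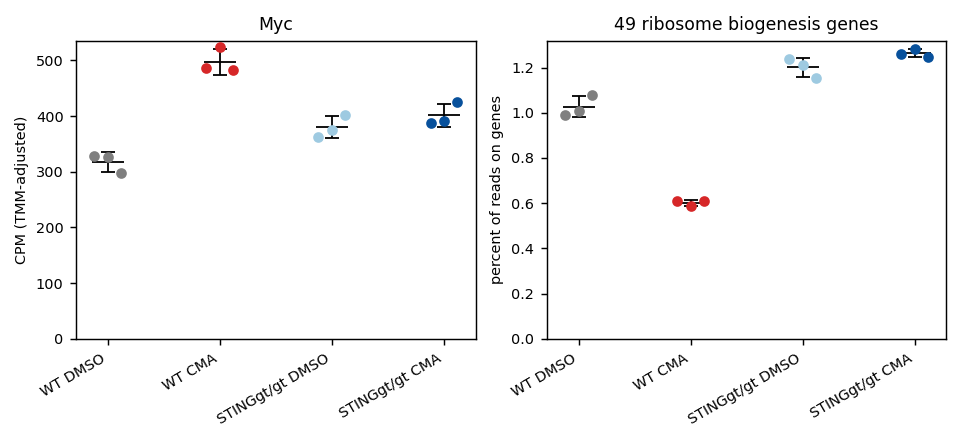
Level of Myc mRNA (left, CPM) and share of the reads on genes that fell on the 49 ribosome biogenesis genes (right, percent) in the 12 libraries; points are libraries, the bar is the mean and the whiskers are 1 SD (n = 3 per group). Myc is highest in WT CMA, at 483 to 524 CPM, the group in which the share of the 49 genes is lowest, at 0.586% to 0.611%.

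By edgeR's quasi-likelihood test 49 genes were lower and 1 was higher with CMA in WT, where 70.4% of all genes tested changed, 37.4% lower and 33.0% higher. The groups did not overlap for any of the 50, with CMA below DMSO in 49 and above it in 1. Of all genes tested, 37.6% had every CMA library below every DMSO library and 33.5% had every one above. The median log2 fold change was -0.82 over the 50 genes and -0.04 over all genes tested, and it ran from -1.72 for Rrp12 to 0.65 for Myc. In 10 of the genes the fall was more than 2-fold, where 7.68% of all genes tested fell by at least 2-fold at an adjusted p under 0.05 in edgeR. Cell type markers moved with the same groups, though not list by list in 1 direction. With CMA in WT, 4 of the 8 T cell markers were lower, Cd3e furthest (log2 fold change -0.66 ± 0.05), and Cd4 was higher (0.19 ± 0.04). Of the 7 B cell markers 5 were higher and Cd79b and Blk were not called. Of the 6 myeloid markers tested Mpeg1 was higher (1.68 ± 0.10) and Lyz2, Itgam and Fcgr3 were lower, and of the 7 CD8 and natural killer cell markers 4 were lower, Prf1 carrying most of the fall of their sum, and Eomes was higher. Reads on no gene were 4.86% to 5.47% of all counts in WT DMSO and 6.79% to 7.16% in WT CMA. Not uniquely aligned reads made up 29.6% to 30.3% and 27.8% to 27.9% of them, and both measures were without overlap. The part of the markers and of these read shares in the result was not tested.

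**Figure D2:**
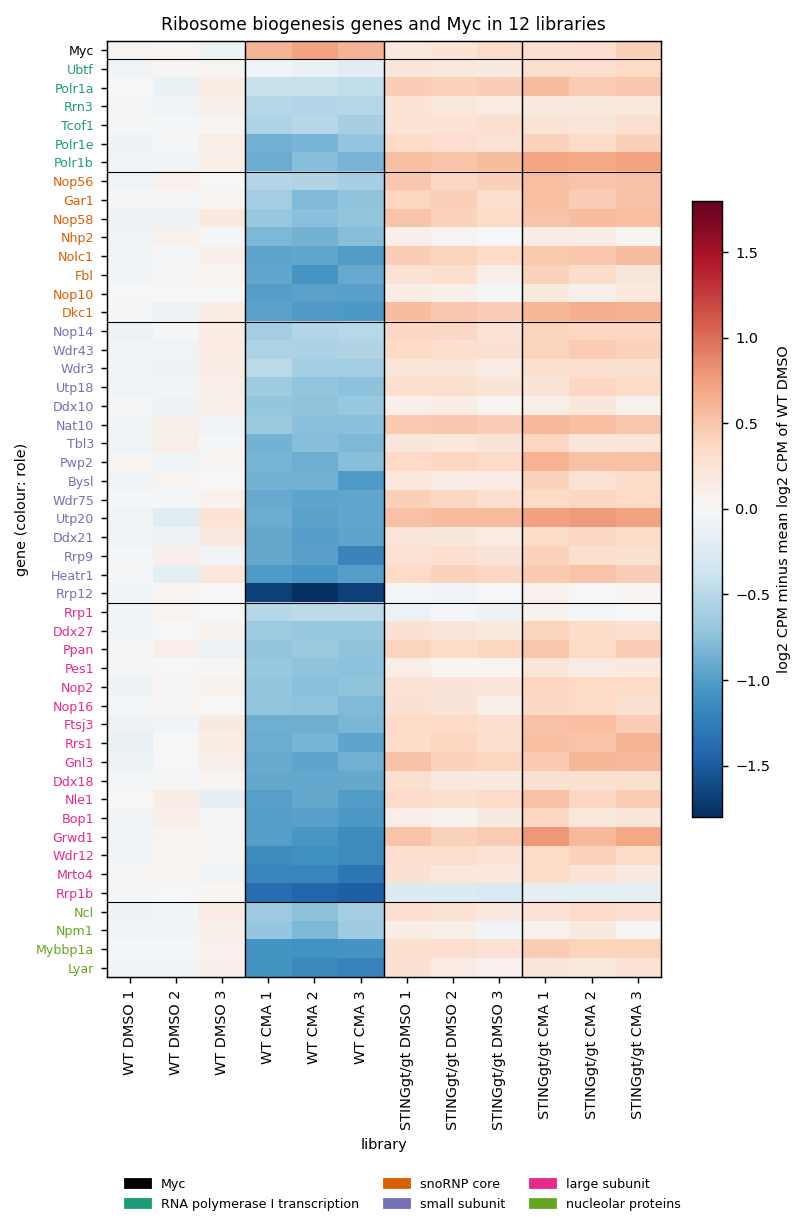
Heat map of the 50 genes (lines, coloured by role and ordered within a role by the response in WT) in the 12 libraries (columns); colour is log2 CPM minus the gene's mean log2 CPM in WT DMSO. The 3 WT CMA libraries are blue for the 49 ribosome biogenesis genes and red for Myc, and the STINGgt/gt libraries are pale red for most genes with either treatment.

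The genes of RNA polymerase I transcription fell least, with a median log2 fold change of -0.54 over the 6. Polr1b (2:129100995-129126594), the second largest subunit of the polymerase, stood at 48.3, 48.8 and 54.6 CPM in WT DMSO and at 27.1, 29.6 and 28.3 CPM in WT CMA. Polr1e (4:45018583-45036565), a further subunit, stood at 22.4, 23.3 and 25.8 CPM and at 13.1, 13.3 and 14.5 CPM. Both fell without overlap, by 1.79-fold (log2 fold change -0.84 ± 0.05, adjusted p = 5.12e-10) and by 1.75-fold (-0.81 ± 0.07, adjusted p = 1.14e-08). Ubtf (11:102304560-102319742), the factor that binds the ribosomal DNA and loads the polymerase, had the smallest change of the 49 genes, from 151, 160 and 163 CPM to 149, 145 and 138 CPM. The highest CMA library lay just under the lowest DMSO library (log2 fold change -0.13 ± 0.04, adjusted p = 0.0126), and the call was lost in 6 of 22 alternatives: without WT DMSO replicate 3, without WT CMA replicate 3, without the filter on low counts, with a filter of at least 10 counts, with the 2 WT groups alone and with limma on the authors' log2 values (-0.11 to -0.09). These 22 leave out stricter thresholds, and the call was also lost at an adjusted p under 0.01. Polr1a, the largest subunit, Rrn3, which carries the polymerase to the promoter, and Tcof1, a nucleolar factor of the same transcription, fell by 0.42 ± 0.06, 0.52 ± 0.05 and 0.55 ± 0.04 on the log2 scale.

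All 8 genes of the snoRNP cores fell, with a median of -0.89. Dkc1 (X:75095854-75109777) encodes dyskerin, the pseudouridine synthase of the H/ACA snoRNPs and a part of telomerase. It stood at 130, 125 and 146 CPM in WT DMSO and at 68.5, 65.5 and 64.9 CPM in WT CMA, a 2.02-fold fall (log2 fold change -1.01 ± 0.06, adjusted p = 8.01e-11). Nop10 (2:112261926-112263269), a small protein of the same particles, had the tightest libraries of WT DMSO, at 68.5, 68.0 and 67.4 CPM, and fell to 34.1, 34.7 and 34.6 CPM (-0.98 ± 0.05, adjusted p = 2.93e-11). The change was smallest in Nop56 (2:130274430-130279313), a core protein of the C/D box snoRNPs that guide ribose methylation. Nop56 stood at 194, 214 and 203 CPM and at 142, 139 and 135 CPM, a 1.47-fold fall without overlap (-0.55 ± 0.05, adjusted p = 1.34e-08). Fbl, the methyltransferase of the C/D box particles, and its partner Nop58 fell by 0.97 ± 0.06 and 0.72 ± 0.07 on the log2 scale, Gar1 and Nhp2 of the H/ACA particles by 0.71 ± 0.05 and 0.81 ± 0.05, and Nolc1, a chaperone of snoRNPs, by 0.97 ± 0.05.

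Among the 15 genes of small subunit assembly the median was -0.83, and Rrp12 (19:41862852-41896153), a factor in the maturation and export of subunits, fell furthest of all 50. It stood at 60.6, 64.8 and 63.2 CPM in WT DMSO and at 19.5, 18.02 and 19.7 CPM in WT CMA. This was a 3.30-fold fall (log2 fold change -1.72 ± 0.05, adjusted p = 2.59e-14). Heatr1 (13:12395398-12438677), a large scaffold protein of the small subunit processome, stood at 155, 139 and 180 CPM and at 77.1, 74.9 and 78.5 CPM, a 2.05-fold fall without overlap (-1.04 ± 0.07, adjusted p = 8.96e-10). Nop14 (5:34638532-34660148), another processome protein, fell least in the group, from 93.2, 97.0 and 110 CPM to 65.7, 69.4 and 70.7 CPM (-0.55 ± 0.06, adjusted p = 2.85e-07). Utp20 (10:88746607-88826814), whose product joins the same particle, stood at 81.0, 74.4 and 101 CPM with DMSO and at 45.6, 43.4 and 44.4 CPM with CMA, the widest spread of any of the 49 genes in WT DMSO (-0.95 ± 0.08, adjusted p = 1.89e-08). Rrp9 of the U3 snoRNP, the helicase Ddx21 and the processome protein Wdr75 fell by 1.02 ± 0.07, 0.95 ± 0.06 and 0.93 ± 0.05 on the log2 scale, and the other 8 genes by 0.56 (Wdr43) to 0.90 (Bysl).

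Over the 16 genes of large subunit assembly the median was -0.90. Rrp1b (17:32036100-32062865), a nucleolar protein related to Rrp1, stood at 139, 141 and 146 CPM in WT DMSO and at 55.1, 52.8 and 51.4 CPM in WT CMA. It fell 2.67-fold (log2 fold change -1.42 ± 0.04, adjusted p = 2.56e-14), whereas Rrp1 (10:78400362-78413043) had the smallest change of these 16, from 235, 251 and 240 CPM to 169, 174 and 175 CPM (-0.49 ± 0.04, adjusted p = 3.11e-08). Mrto4 (4:139347435-139352576), which holds the place of a stalk protein on the immature subunit, went from 71.1, 72.1 and 68.1 CPM to 31.3, 31.1 and 28.6 CPM, a 2.32-fold fall (-1.21 ± 0.06, adjusted p = 9.35e-12). The 3 members of the PeBoW complex, which is needed to process the large subunit RNA, fell by 0.72 ± 0.04 (Pes1), 1.00 ± 0.05 (Bop1) and 1.14 ± 0.05 (Wdr12) on the log2 scale. Grwd1, Nle1, Gnl3 (nucleostemin) and Rrs1 fell by 1.06 ± 0.07, 0.97 ± 0.07, 0.91 ± 0.06 and 0.90 ± 0.06.

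The 4 nucleolar proteins fell as well, with a median of -0.90. Lyar (5:38220470-38234306), a nucleolar zinc finger protein, stood at 97.1, 97.5 and 107 CPM in WT DMSO and at 47.6, 45.2 and 43.7 CPM in WT CMA, a 2.21-fold fall (log2 fold change -1.15 ± 0.06, adjusted p = 3.34e-11). Mybbp1a (11:72441355-72451768), a Myb-binding protein of the nucleolus, stood at 406, 408 and 441 CPM and at 199, 197 and 198 CPM, a 2.11-fold fall (-1.08 ± 0.04, adjusted p = 1.12e-12). Ncl (1:86344719-86359455) encodes nucleolin, which binds the precursor RNA, and went from 1885, 1930 and 2215 CPM to 1272, 1206 and 1317 CPM (-0.67 ± 0.06, adjusted p = 3.22e-08). In none of these genes did the groups overlap. Per kilobase of merged exon, Npm1 (nucleophosmin) was the highest of the 50 genes in WT DMSO, at 1082 CPM per kb. Ncl at 197, Myc at 117 and Ddx21 at 97.4 followed, and the lowest was Wdr12 at 4.73. Merged exon takes in every annotated exon, 11955 bases in Wdr12 against 2665 in Npm1, so this order depends on the annotation. By CPM alone the lowest in WT DMSO was Nle1, at a mean of 20.5. With CMA, Npm1 stood at 659 and Myc at 183 CPM per kb.

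**Figure D3:**
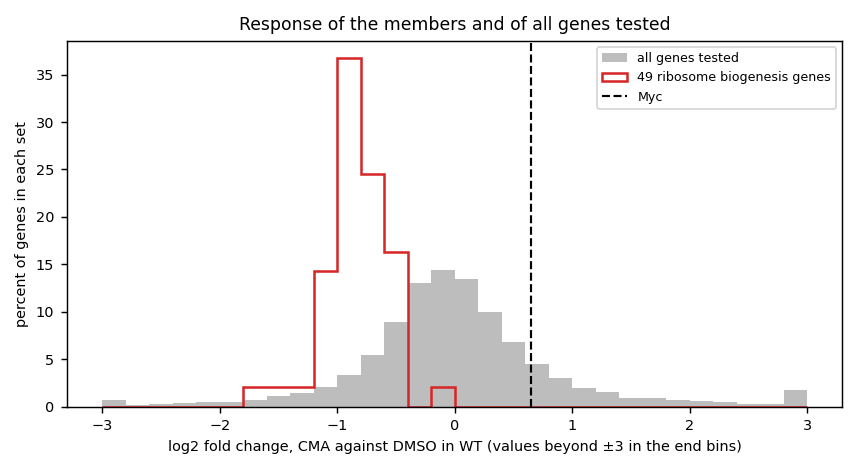
Distribution of the log2 fold change with CMA in WT over all 13811 genes tested (grey) and over the 49 ribosome biogenesis genes (red outline), as percent of the genes of each set in bins of equal width; the dashed line is Myc. The 49 genes lie between -1.72 and -0.13, on 1 side of a grey distribution whose median is -0.04.

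In STINGgt/gt cells, which lack a functional STING, none of the 50 genes passed the test with CMA. EdgeR called 0 of 50, where it called 1.32% of all genes tested (0.398% higher and 0.920% lower). At an unadjusted p under 0.05 it gave 20 of the 50, all higher with CMA, where 5.94% of all genes tested were higher at that p. The fitted change was above 0 in 47 of the 49 genes other than Myc, against 50.6% of all genes tested, and the median over the 50 was 0.09 on the log2 scale against 0.00 over all genes. In 29 of the 50 every CMA library lay above every DMSO library, and in 0 every one lay below; the share of all genes tested was 11.8% and 11.3%. The highest fitted changes were those of Grwd1 (0.22 ± 0.06, adjusted p = 0.0679), Rrs1 (0.21 ± 0.06, adjusted p = 0.104) and Pwp2, a processome protein (0.20 ± 0.05, adjusted p = 0.0514).

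Pwp2 stood at 54.9, 55.9 and 54.3 CPM in STINGgt/gt DMSO and at 65.8, 61.6 and 61.8 CPM in STINGgt/gt CMA. Grwd1 stood at 39.2, 36.8 and 38.0 CPM and at 47.2, 41.2 and 44.6 CPM. These groups did not overlap, although neither gene passed the threshold. The count of calls in this comparison moved with the fit. DESeq2 called 5 of the 50, limma-voom 1 and limma on the authors' log2 values 0, where the share of all genes called higher was 0.891%, 0.449% and 0.260%. A fit of the 2 STINGgt/gt groups alone gave 9 (2.04% of all genes), the fit without WT DMSO replicate 3 gave 8 (1.21%) and that without WT DMSO replicate 2 gave 4 (1.28%), and all of these calls were higher with CMA. With replicate numbers as a block the count was 2, Grwd1 and Pwp2 (0.941%).

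**Figure D4:**
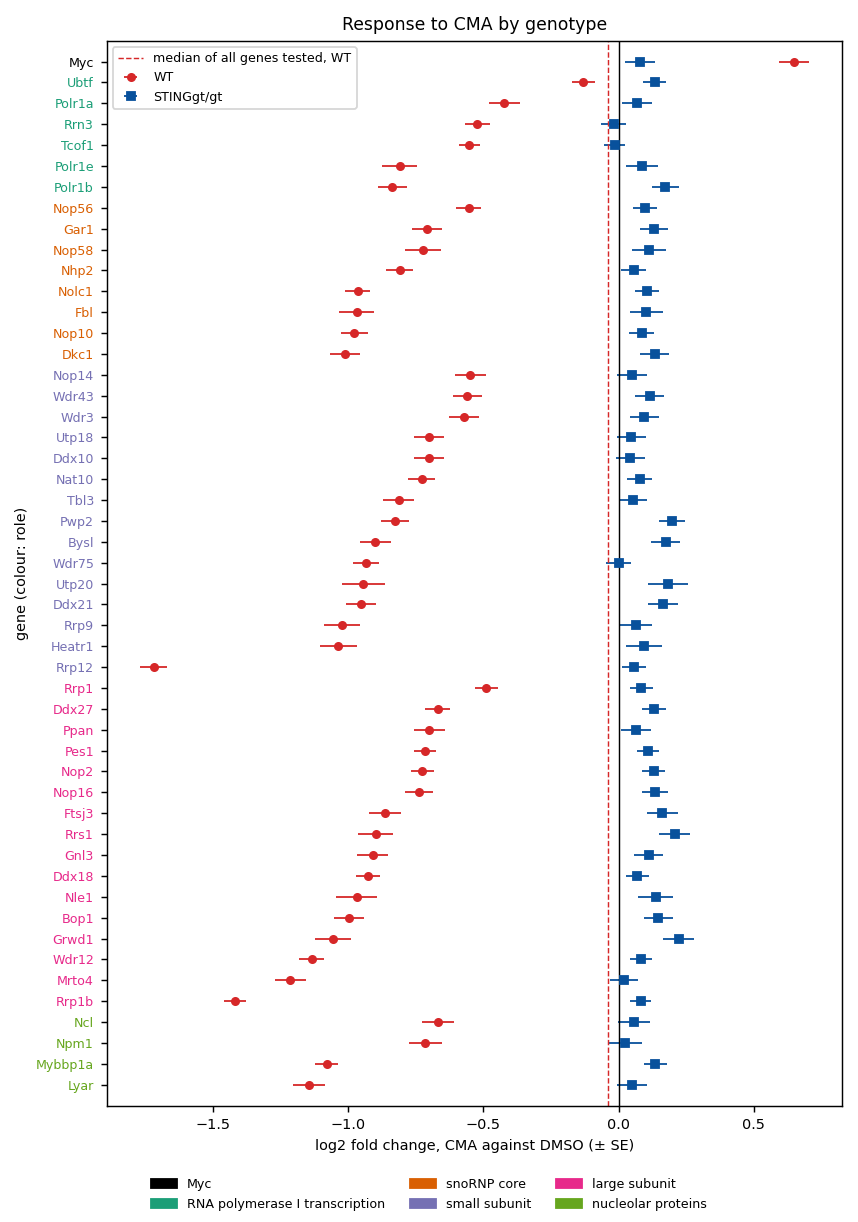
Log2 fold change with CMA (± SE) of each of the 50 genes in WT (red circles) and in STINGgt/gt (blue squares), with gene names coloured by role; the dashed line is the median of all genes tested in WT. Every WT value except that of Myc lies below -0.1, and the STINGgt/gt values lie between -0.02 and 0.22.

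The response to CMA differed between the genotypes for all 50 genes when the difference itself was tested. It was lower in WT for 49 genes and higher for Myc, where 58.8% of all genes tested differed, 31.6% lower and 27.2% higher. The median difference was -0.92 on the log2 scale, and the largest adjusted p was 0.0013, for Ubtf (-0.27 ± 0.06). In 23 of the 50 genes the difference was below -1, where 7.30% of all genes tested were as low at an adjusted p under 0.05 in edgeR. Rrp12 had the widest difference (-1.78 ± 0.07, adjusted p = 2.61e-12), followed by Rrp1b (-1.50 ± 0.06, adjusted p = 2.61e-12) and by Grwd1 (-1.28 ± 0.09, adjusted p = 2.81e-09). This comparison uses the same DMSO libraries as each genotype's own comparison. Side by side, Rrp12 had a log2 fold change of -1.72 in WT and 0.06 in STINGgt/gt, Mybbp1a -1.08 and 0.14, Dkc1 -1.01 and 0.13, and Ncl -0.67 and 0.06.

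With DMSO alone, most of the genes were lower in WT than in STINGgt/gt cells, Myc among them. EdgeR called 41 of the 50 lower in WT and 1 higher, where 42.7% of all genes tested differed, 19.8% lower and 22.9% higher. The median difference, WT minus STINGgt/gt, was -0.26 on the log2 scale against 0.00 over all genes tested. In 40 of the 50 every WT library lay below every STINGgt/gt library (22.6% of all genes tested), and in 1 every one lay above (25.3%). The sums of the B cell, myeloid and CD8 and natural killer cell markers were higher in WT DMSO than in STINGgt/gt DMSO, without overlap, with 7 of 7, 6 of 6 and 5 of 7 of the tested markers called higher. Eomes of the last list was lower in WT (-0.79), as were the T cell markers Cd4 (-0.31) and Cd3e (-0.14). Reads on no gene were 4.86% to 5.47% of all counts in WT DMSO and 5.98% to 6.54% in STINGgt/gt DMSO. Not uniquely aligned reads made up 29.6% to 30.3% and 28.1% to 29.0% of them. The part of these in the result was not tested, and differences between the colonies other than the STING mutation cannot be told apart from it.

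Utp20 had the largest genotype difference, with 81.0, 74.4 and 101 CPM in WT DMSO and 122, 126 and 125 CPM in STINGgt/gt DMSO. The 3 WT libraries were the low ones and the groups did not overlap (1.46-fold, log2 difference -0.54 ± 0.08, adjusted p = 2.83e-05). Polr1b followed, at 48.3, 48.8 and 54.6 against 73.3, 71.8 and 74.8 CPM (-0.53 ± 0.05, adjusted p = 3.22e-07), and then Dkc1, at 130, 125 and 146 against 196, 186 and 181 CPM (-0.49 ± 0.05, adjusted p = 1.87e-06). All 6 genes of RNA polymerase I transcription were lower in WT, as were 6 of the 8 snoRNP genes, 13 of the 15 small subunit genes, 12 of the 16 large subunit genes and 3 of the 4 nucleolar proteins. Myc was lower in WT DMSO, at 297 to 329 CPM against 362 to 402 CPM (-0.26 ± 0.06, adjusted p = 0.00119).

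Rrp1b went the other way. It stood at 139, 141 and 146 CPM in WT DMSO and at 120, 120 and 117 CPM in STINGgt/gt DMSO, so that the WT libraries were the high ones (0.26 ± 0.04, adjusted p = 6.47e-05). The 8 genes that did not pass the test were Nhp2, Nop10, Rrp12, Ddx10, Pes1, Bop1, Rrp1 and Npm1, with differences from -0.12 (Bop1) to 0.08 (Rrp1). Rrp12, which had the strongest response to CMA in WT, thus stood at 60.6 to 64.8 CPM in WT DMSO and at 60.3 to 63.2 CPM in STINGgt/gt DMSO (0.02 ± 0.05, adjusted p = 0.719).

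**Figure D5:**
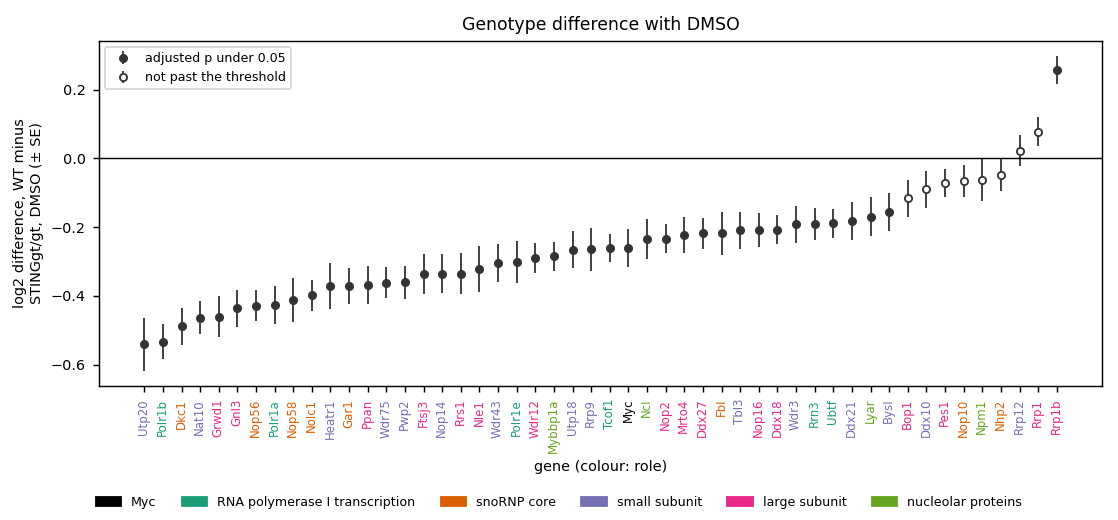
Log2 difference between WT and STINGgt/gt with DMSO (± SE) of the 50 genes, in order of size and with names coloured by role; filled points passed an adjusted p of 0.05. The values run from -0.54 for Utp20 to 0.26 for Rrp1b, and 41 filled points lie below 0.

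Across the 4 groups, 40 genes were lower with CMA in WT, not called in STINGgt/gt and lower in WT with DMSO. Taken singly, 37.4% of all genes tested were lower with CMA in WT, 1.32% were called in STINGgt/gt and 19.8% were lower in WT with DMSO. The share of all genes tested with the joint pattern is not given here. In 44 genes the means rose in the order WT CMA, WT DMSO, STINGgt/gt DMSO and STINGgt/gt CMA. Nor is the share of all genes tested in this order given, so both counts describe the 50 genes alone. Rrp1 and Rrp12 had WT DMSO above STINGgt/gt DMSO, Rrn3 and Tcof1 had STINGgt/gt DMSO above STINGgt/gt CMA, and Rrp1b had WT DMSO on top. The pair of STINGgt/gt groups passed the test in none of the 50 genes, and the pair of DMSO groups did not pass it in 8. WT DMSO was not tested against STINGgt/gt CMA, its neighbour in the orders of Rrp1, Rrp12, Rrp1b, Rrn3 and Tcof1. The spread between libraries was widest in WT DMSO, with a median coefficient of variation of 5.65% over the 50 genes against 2.93% to 3.14% in the other groups. The counts of its libraries also differed most, by a chi-square of 9.98 to 29.9 (per degree of freedom) between pairs against 2.63 to 6.82 in the other groups. Library 3 of that group was above the group mean in 37 of the 49 genes and library 1 in 4.

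Other genes of the pathway, from lists that share no gene with the 50, also were lower with CMA in WT. Of 89 such genes tested, 77 (86.5%) were lower and 5 (5.62%) higher, where 37.4% of all genes tested were lower and 33.0% higher, and the median log2 fold change was -0.55. The assembly factors of the large subunit fell in 33 of 35 genes, among them Rrp15 (-1.47 ± 0.07) and Rpf2 (-1.30 ± 0.07), while Ddx24 and Sbds rose (0.49 ± 0.04 and 0.47 ± 0.04). In the small subunit list 28 of 33 fell, with Nol10 (-1.23 ± 0.05) and Pno1 (-1.17 ± 0.06) lowest, and Riok1 rose (0.41 ± 0.06). The 11 tested subunits and cofactors of the RNA exosome, which trims precursor RNA, were all lower, from Exosc1 (-0.79 ± 0.06) to Exosc5 (-0.21 ± 0.08). The other genes of RNA polymerase I transcription were mixed, with 5 of 10 lower and 2 higher, shares near those of all genes tested. Cd3eap and Polr1d, which are polymerase subunits, fell (-0.98 ± 0.07 and -0.46 ± 0.04), and Ttf1, the terminator protein of this transcription, rose (0.37 ± 0.05). In STINGgt/gt 1 of the 89 genes (1.12%) was called, Ddx51, a share near the 1.32% of all genes tested. Ddx51 was higher with CMA. In 28 of the 89 (31.5%) every CMA library lay above every DMSO library, and in 2 (2.25%) every one lay below. The share of all genes tested was 11.8% and 11.3%.

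Genes known as Myc targets outside the ribosome were lower in WT with CMA in 19 of 20 cases (37.4% of all genes tested), with a median of -0.76. Nme1, a nucleoside diphosphate kinase, went from 60.9, 66.5 and 62.5 CPM to 17.2, 17.4 and 17.5 CPM (-1.87 ± 0.05, adjusted p = 1.93e-14), and Srm, the spermidine synthase, fell by 1.37 ± 0.06 on the log2 scale. Tert, the catalytic subunit of telomerase, was the 1 gene of the 20 that rose (0.38 ± 0.08).

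The other members of the Myc and Max network did not move as 1 group in WT, with 7 of 11 higher, 2 lower and a median of 0.29. The 81.8% called in either direction lies near the 70.4% of all genes tested, but the directions differ. Of the list 63.6% was higher and 18.2% lower, against 33.0% and 37.4% of all genes tested. Mxd1, which pairs with Max at E-boxes and represses, stood at 114, 114 and 119 CPM in WT DMSO and at 577, 594 and 554 CPM in WT CMA. This was a rise of 2.31 ± 0.05 on the log2 scale without overlap (adjusted p = 3.9e-16), and in STINGgt/gt Mxd1 stood at 63.1 to 70.1 CPM with DMSO and at 60.5 to 61.4 CPM with CMA (-0.13 ± 0.05, adjusted p = 0.226). Mxi1 and Mxd4, repressors of the same family, rose by 0.79 ± 0.04 and 0.77 ± 0.06. Mlx, a partner of other factors of the network, fell by 0.75 ± 0.06, and Mycn, at 0.780 to 1.01 CPM in WT DMSO, by 1.06 ± 0.24. Max itself was at 132 CPM ± 2.49 (SD, n = 3) with DMSO and 135 ± 4.57 with CMA in WT (0.03 ± 0.04, adjusted p = 0.559). Mxi1 was the 1 gene of this list called in STINGgt/gt, and it was lower with CMA (-0.18 ± 0.04, adjusted p = 0.0404).

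The counting bears on some of the genes. Reads with more than 1 alignment were not counted on genes, so a gene with near-identical copies elsewhere is undercounted. Their line held 27.8% to 30.3% of all counts of a library, which need not be their share of the reads. In 8 of the 50, Polr1a, Heatr1, Wdr3, Tbl3, Nop14, Bysl, Pes1 and Mybbp1a, at least 100 bases of exon overlap a gene on the opposite strand in the GENCODE annotation. The sources used here do not give the strand setting of the counting, so how reads from these overlaps were counted is not known. In 5 other genes, Ppan, Nop56, Nop58, Ncl and Gnl3, exons overlap genes of small RNAs on the same strand.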

How the data were processed

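RNA was sequenced from stranded mRNA libraries of CD4+ T cells in 4 groups of 3. Per the labels, the authors trimmed reads with cutadapt 1.3, aligned them to GRCm38 with STAR 2.4.0f1 and counted them with HTSeq 0.6.1; RSEM 1.2.16 is also named. The annotation release and strand setting are not given in the sources used here. The deposited files hold raw counts per gene and a log2 table of 11921 genes, which the authors made as the log2 of count plus 0.5 and 1 constant per library, as checked on the values. Lines of the count files that name no gene were left out of library sizes. Of the sum of all lines, not uniquely aligned reads were 27.8% to 30.3%, reads on no gene 4.86% to 7.16% and ambiguous reads 0.594% to 0.635%. Whether a read with several alignments was entered more than once was not checked.

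Counts were fitted in edgeR 4.0.16 (R 4.3.3) with filterByExpr (13811 genes), TMM scaling, all 4 groups in 1 quasi-likelihood model and no block, adjusting p by Benjamini-Hochberg over every tested gene, with a threshold of 0.05. SEs were derived from the log2 fold change and the F statistic. The study used Student's test for a gene display from these libraries and names no model of counts. Alternatives were other scalings, DESeq2 1.42.0, limma 3.58.1 (voom, and on the log2 table), other filters, the 2 groups alone, stricter thresholds, a replicate block and leaving out each library. The scripts were tested on simulated data. Values of every library are given for Myc, for the 2 genes of each role with the lowest and the 1 with the highest log2 fold change in WT and for the 2 with the largest genotype difference; of the other lists, the 2 lowest and the highest are named. Pwp2, Grwd1 and the other genes named were chosen after their values were seen. The members and lists were chosen with earlier results of these data known.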

Additional observations from a re-analysis of the deposited data

Results flagged for a closer look

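The CMA effect was compared between the genotypes for Myc and the 16 other genes picked by their response in WT or by the genotype difference, by the interaction term of the edgeR fit. It passed the threshold in each, where 58.8% of all genes tested passed it; most of these genes were picked by the response in WT, which is part of this difference, so their count is no separate result. On the log2 scale, WT minus STINGgt/gt, the difference was 0.57 for Myc, which was higher with CMA in WT, and below 0 for the others. In RNA polymerase I transcription it was -1.01 for Polr1b, -0.90 for Polr1e and -0.27 for Ubtf. In the snoRNP cores it was -1.15 for Dkc1, -1.06 for Nop10 and -0.65 for Nop56. Among the small subunit genes it was -1.78 for Rrp12, -1.13 for Heatr1, -1.13 for Utp20 and -0.60 for Nop14. The large subunit genes Rrp1b, Mrto4 and Rrp1 had -1.50, -1.24 and -0.57, and the nucleolar proteins Mybbp1a, Lyar and Ncl had -1.22, -1.20 and -0.73. Single libraries were not tested for standing apart within the groups of 3.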

How the results depend on the processing

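The changes recomputed were 143 fitted ones of single genes: each called one, and Myc in STINGgt/gt, which was not called. Over the alternatives other than stricter thresholds they were recomputed 3054 times. Of these, 3039 stayed on the same side of the threshold, 15 lost it and 0 changed sign. Apart from stricter thresholds, Ubtf in WT lost its call in 6 of 22 alternatives (adjusted p up to 0.122), and the genotype calls of Bysl, Lyar, Ddx21 and Fbl were lost in 3, 3, 2 and 1. Leaving out each library in turn gave 48 to 49 genes lower in WT (34.6% to 37.4% of all genes), 38 to 42 lower in WT than STINGgt/gt with DMSO (16.8% to 22.3%) and 0 to 8 higher with CMA in STINGgt/gt (0.0997% to 1.28%). In that last comparison edgeR without a filter and DESeq2 gave 5 each (0.796% and 0.891% of all genes), the fit of 2 groups alone gave 9 (2.04%), and library-size scaling, limma-voom and a filter of at least 10 counts gave 1 each (0.434%, 0.449% and 0.706%); the cause was not tested. At an adjusted p under 0.01, 48 genes were lower in WT (32.7%), without Ubtf, and 38 were lower in WT than STINGgt/gt with DMSO (13.4%). With a minimum of 2-fold, 10 genes were lower and 0 higher in WT (7.68% and 9.32% of all genes), 23 had a lower and 0 a higher response in WT than in STINGgt/gt (7.30% and 8.70%), and 0 differed with DMSO in either direction (7.28%). With the same minimum, the other lists in WT had 7 lower and 0 higher of the 89 genes (0 and 0 in RNA polymerase I transcription, 4 and 0 in small subunit, 3 and 0 in large subunit assembly, 0 lower in the exosome), 5 lower and 0 higher of the Myc targets, and 1 lower and 2 higher in the Max network, where the filter of at least 10 counts left 1 lower. The median difference of the response was -0.865 on the authors' log2 table. The median of all genes moved by less than 0.1 under each scaling. Replicate numbers were not taken as pairs, since not every correlation passed 0.1 and the labels name no shared animal or batch (correlations of 0.00291 to 0.111 in WT and 0.0383 to 0.0523 in STINGgt/gt, with 5 of 6 libraries matching their own number best, a hint of pairing; the labels' sample names also share a first digit in 5 of these 6 pairs). With the replicate block 1 gene was higher and 49 were lower in WT, and 2 were higher in STINGgt/gt. At 322 counts or more per gene and library, depth set no limit on detecting the 50 genes.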
